A study of Homo sapiens with 12 samples.

Results

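The TRIM genes were taken as every gene whose symbol is TRIM followed by a number, and a gene was kept as a member in a cell line when its counts summed to at least 50 over the 6 libraries of that line. Of 39368 symbols in each count table, 66 had such a name. Of these, 49 were members in CAL27 and 44 in HSC3, and the 44 HSC3 members were all members in CAL27 too. The members in CAL27 alone were TRIM31, TRIM43, TRIM72, TRIM73 and TRIM74, with 53 to 134 counts in CAL27 and 0 to 24 in HSC3. Just inside the limit in CAL27 lay TRIM73 with 53 counts and TRIM74 with 54, and just outside it lay TRIM15 with 49. The other 17 symbols were members in neither line, and TRIM48, TRIM51, TRIM58, TRIM64 and TRIM77 had 0 counts in all 12 libraries.

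TRIM proteins share a tripartite arrangement of a RING finger, B-box zinc fingers and a coiled coil, followed by a C-terminal region that differs between subfamilies. The RING finger recruits a ubiquitin-loaded E2 enzyme, the coiled coil pairs proteins into dimers, and the C-terminal domain, most often a PRY-SPRY domain, binds the target. A subset of the family is induced by interferon and acts in innate immunity. Some of these proteins bind incoming viruses directly, and others attach ubiquitin to sensors and adaptors of the interferon pathway. Other members regulate transcription, the cytoskeleton or membrane repair in settings without infection.

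CAL27 and HSC3 are established human papillomavirus-negative cell lines from squamous cell carcinomas of the tongue. Both carried a tetracycline-inducible MUC1shRNA#1 vector kept under puromycin selection, so vehicle and DOX cells shared the vector and the selection. MUC1 encodes a transmembrane mucin whose C-terminal subunit, MUC1-C, is an oncoprotein. Cells of each line received vehicle (0.1% DMSO) or DOX (doxycycline, 500 ng/ml) for 7 days, and mRNA was sequenced from 3 libraries in each of the 4 groups. CAL27 was grown in DMEM and HSC3 in MEM, so line and medium cannot be told apart. No libraries of cells with a control shRNA and DOX were analysed here, so an effect of DOX itself cannot be told apart from that of the shRNA.

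Total counts per library ranged from 89730914 to 169065103. The estimated number of counts per original molecule was 2.42 to 3.38 in CAL27, 4.19 to 7.45 in HSC3 vehicle and 8.98 to 17.3 in HSC3 DOX libraries, so the total counts do not give the molecules sampled. HSC3 DOX replicate 1 had both the largest total and the most counts per molecule, and results for HSC3 are given with and without it where the call changed. Levels are CPM, counts scaled to a common library total after TMM scaling within a line, unless said otherwise. MUC1, the target of the shRNA, stood at 63.9, 58.9 and 59.9 CPM in CAL27 vehicle and at 3.19, 3.06 and 3.58 CPM in CAL27 DOX libraries, a log2 fold change of -4.21 (SE 0.067). In HSC3 MUC1 stood at 1.51, 1.78 and 1.499 CPM in vehicle and at 0.279, 0.244 and 0.120 CPM in DOX libraries, a log2 fold change of -2.88 (SE 0.38). MUC1 had 46, 36 and 16 counts in these DOX libraries, few at 8.98 to 17.3 counts per molecule, so this level lies near the floor. The squamous markers KRT5, KRT14, KRT6A and TP63, which define these cells, were present in all 12 libraries. The summed level of the 6 squamous markers examined was 6303 to 6497 CPM in CAL27 vehicle, 2895 to 3048 in CAL27 DOX, 5253 to 5816 in HSC3 vehicle and 2308 to 2779 in HSC3 DOX libraries, and 5 of the 6 fell in each line. The summed level of 6 leukocyte and endothelial markers was 21.1 to 22.0 CPM in CAL27 vehicle, 14.5 to 17.9 in CAL27 DOX and at most 1.23 in any HSC3 library. PTPRC had 0 to 12 counts in any library, and the CAL27 sum came mainly from CDH5, with 880 to 2048 counts, and CD14, with 405 to 670. The part of these marker changes in the TRIM results was not tested.

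With DOX, 17 of the 48 TRIM genes tested in CAL27 fell and 6 rose, and 25 did not pass the test. The call rests on edgeR's quasi-likelihood test with p-values adjusted over all genes tested (Benjamini-Hochberg, adjusted p under 0.05). By the same rule 21.8% of all 19239 genes tested in CAL27 were called lower and 22.6% higher, so the family had a larger share of lower calls (35.4%) and a smaller share of higher calls (12.5%) than all genes. In HSC3, 7 of the 44 genes tested fell and 4 rose, beside 15.4% lower and 13.0% higher of all 18021 genes. These shares for TRIM genes, 15.9% lower and 9.09% higher, lay close to those of all genes. The summed level of the family was 2912 ± 28.1 CPM in CAL27 vehicle and 2415 ± 39.1 in CAL27 DOX libraries, and 2022 ± 27.1 and 1897 ± 26.2 in the HSC3 pair (SD, n = 3 each). In these bulk samples, fewer cells that express a gene and less RNA per cell cannot be told apart.

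TRIM5, TRIM14, TRIM21, TRIM22, TRIM25, TRIM26, TRIM34, TRIM38, TRIM56 and TRIM69 were taken as interferon-linked from general knowledge of the family. The list was chosen with earlier results of these data known, so its counts are a description and not an independent test. In CAL27, 8 of these 10 fell and none rose, with a median log2 fold change of -0.56, whereas 9 of the other 38 tested members fell and 6 rose, with a median of -0.07. The shares of the other members, 23.7% lower and 15.8% higher, stand beside 21.8% and 22.6% of all genes, so their lower share was near that of all genes. The median over all genes tested in CAL27 was -0.01. In HSC3, 3 of the 10 fell (TRIM5, TRIM22 and TRIM25) and TRIM38 rose, with a median of 0.11, while 4 of the 34 others fell and 3 rose, with a median of 0.05. For TRIM5, TRIM14, TRIM21, TRIM22 and TRIM25 alone, all 5 fell in CAL27, with a median of -0.77, and the HSC3 median was -0.31, of the opposite sign to that of the 10. The CPM of all 3 DOX libraries lay below all 3 vehicle libraries for 8 of the 10 in CAL27 (26.3% of all genes tested) and for 3 of the 10 in HSC3 (22.8% of all genes tested). They lay above for 1 of the 10 in CAL27 (26.0% of all genes) and for 2 in HSC3 (19.8%). The summed level of the 10 genes went from 797 ± 18.1 to 515.7 ± 12.3 CPM in CAL27 and from 575.3 ± 18.2 to 515.2 ± 3.14 CPM in HSC3 (SD, n = 3).

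**Figure D1:**
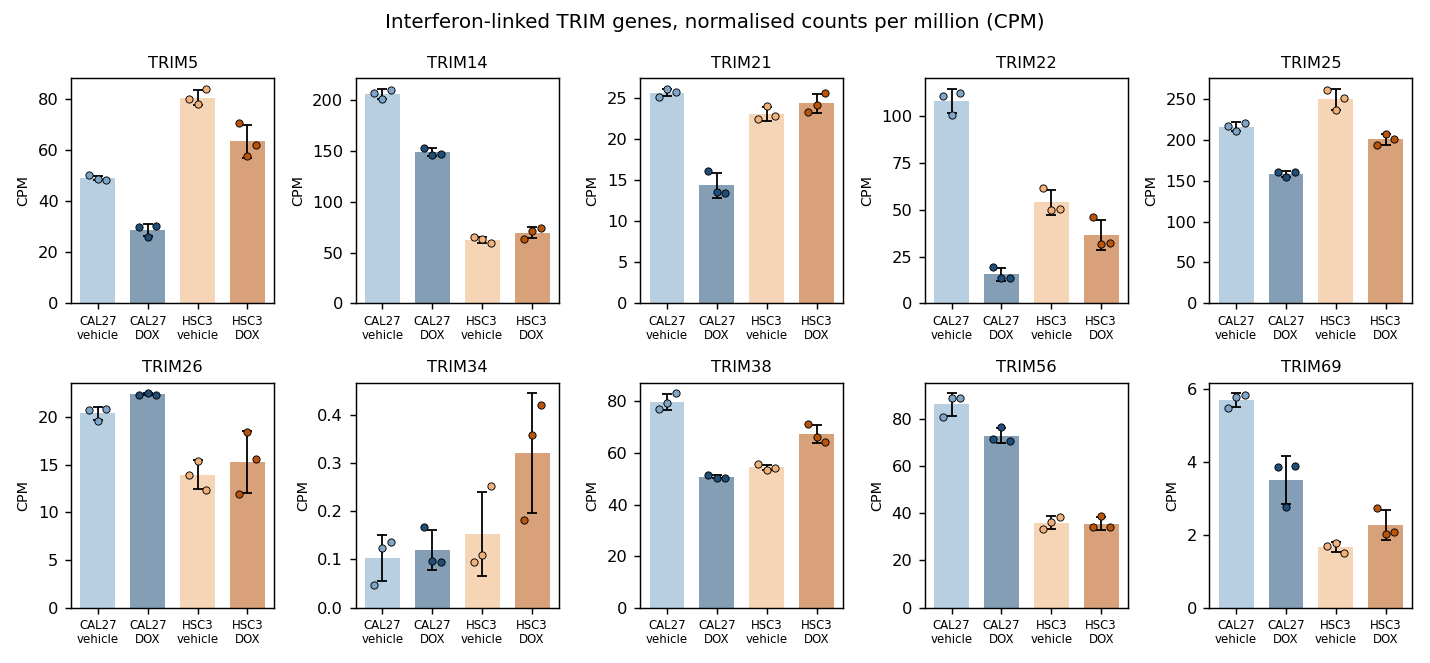
TMM-scaled CPM (y axis, linear from 0) of the 10 interferon-linked TRIM genes in each group (x axis). Points are libraries, bars are means and error bars are SD (n = 3), and CPM were scaled within each line. TRIM22 stands at 101 to 112 CPM in CAL27 vehicle and at 13.4 to 19.4 CPM in CAL27 DOX libraries.

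TRIM22, an interferon-induced restriction factor that limits transcription of retroviral genomes, had the largest change of any member with a call. It stood at 111, 101 and 112 CPM in CAL27 vehicle and at 19.4, 13.4 and 13.6 CPM in CAL27 DOX libraries. The log2 fold change was -2.81 (SE 0.17, adjusted p = 1.67e-04), a 6.99-fold lower level. In HSC3 it stood at 61.3, 49.8 and 50.5 CPM in vehicle and at 45.8, 31.4 and 32.4 CPM in DOX libraries. The groups did not overlap in either line, and the HSC3 log2 fold change was -0.56 (SE 0.14, adjusted p = 0.0125). The HSC3 call was lost without vehicle replicate 1 (adjusted p = 0.0751) and without DOX replicate 3 (0.0564).

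TRIM5, whose alpha isoform binds retroviral capsids, lies on chromosome 11 at chr11:5663195-5938619 on the minus strand, a span that in GENCODE also covers TRIM22, at chr11:5689610-5737089 on the plus strand. Of the TRIM5 exon bases, 7.14% are shared with exons of another gene on the same strand. Its level was 50.1, 48.6 and 48.4 CPM in CAL27 vehicle and 30.005, 26.0 and 30.2 CPM in CAL27 DOX libraries, with a log2 fold change of -0.77 (SE 0.055, adjusted p = 6.47e-10). In HSC3 the vehicle libraries stood at 79.8, 77.8 and 83.8 CPM and the DOX libraries at 70.5, 57.5 and 62.0 CPM, all below the lowest vehicle library. The HSC3 log2 fold change was -0.35 (SE 0.082, adjusted p = 0.00914), and this call was lost without vehicle replicate 3 (0.0518). TRIM21, a cytosolic receptor for the constant part of antibodies, stood at 25.1, 26.0 and 25.7 CPM in CAL27 vehicle and at 16.1, 13.6 and 13.4 CPM in CAL27 DOX libraries. This was a log2 fold change of -0.84 (SE 0.068, adjusted p = 4.31e-09). In HSC3 TRIM21 stood at 22.5, 24.0 and 22.7 CPM in vehicle and at 23.3, 24.1 and 25.6 CPM in DOX libraries, which overlapped, and its log2 fold change was 0.08 (SE 0.085, adjusted p = 0.584).

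TRIM25 is the ligase known for ubiquitin chains on the RNA sensor RIG-I. It stood at 217, 210.2 and 221 CPM in CAL27 vehicle and at 161, 154 and 160.4 CPM in DOX libraries (log2 fold change -0.45, SE 0.038, adjusted p = 7.29e-09). In HSC3 TRIM25 stood at 261, 236 and 250.9 CPM in vehicle and at 193, 207 and 201 CPM in DOX libraries (log2 fold change -0.31, SE 0.062, adjusted p = 0.00289). Thus TRIM25 fell in both lines with no overlap between the groups. TRIM14 lacks a RING finger and serves as an adaptor at MAVS and for cGAS. It stood at 208, 201 and 210.0 CPM in CAL27 vehicle and at 153, 146 and 147 CPM in DOX libraries (log2 fold change -0.47, SE 0.038, adjusted p = 3.62e-09). In HSC3 TRIM14 stood at 64.9, 63.2 and 59.0 CPM in vehicle and at 63.2, 71.7 and 73.8 CPM in DOX libraries. The groups overlapped, and the log2 fold change was 0.16 (SE 0.078, adjusted p = 0.176). Without HSC3 DOX replicate 1 it was 0.22 and passed the test (adjusted p = 0.00662).

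TRIM56, which ubiquitinates components of the cGAS-STING pathway, stood at 80.6, 88.7 and 88.9 CPM in CAL27 vehicle and at 71.5, 76.5 and 70.6 CPM in DOX libraries. It fell by 0.24 on the log2 scale in CAL27 (SE 0.047, adjusted p = 2.45e-04), with no overlap of the groups. In HSC3 TRIM56 was at 33.2 to 38.6 CPM in vehicle and at 34.0 to 38.68 CPM in DOX libraries (log2 fold change -0.02, adjusted p = 0.927). TRIM38, a negative regulator of inflammatory signalling, moved in opposite directions. In CAL27 it stood at 77.1, 79.4 and 83.2 CPM in vehicle and at 51.6, 50.4 and 50.5 CPM in DOX libraries (log2 fold change -0.65, SE 0.043, adjusted p = 1.55e-10). In HSC3 TRIM38 stood at 55.6, 53.5 and 54.1 CPM in vehicle and at 71.2, 66.3 and 64.4 CPM in DOX libraries (log2 fold change 0.31, SE 0.069, adjusted p = 0.00642). The groups were apart in each line, lower with DOX in CAL27 and higher in HSC3.

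TRIM69, TRIM26 and TRIM34 completed the interferon-linked genes. TRIM69, an antiviral ligase that assembles on microtubules, stood at 5.48, 5.78 and 5.81 CPM in CAL27 vehicle and at 3.86, 2.75 and 3.88 CPM in DOX libraries (log2 fold change -0.70, SE 0.12, adjusted p = 7.36e-05). In HSC3 TRIM69 stood at 1.69, 1.76 and 1.499 CPM in vehicle and at 2.74, 2.01 and 2.06 CPM in DOX libraries. Every HSC3 DOX library was above every vehicle library, but the log2 fold change of 0.46 (SE 0.22) did not pass the test (adjusted p = 0.151). TRIM26, a ligase with a role in the control of IRF3, had vehicle levels of 19.6 to 20.9 CPM and DOX levels of 22.3 to 22.5 CPM in CAL27 (log2 fold change 0.13, SE 0.055, adjusted p = 0.0570). In HSC3 TRIM26 ranged from 12.4 to 15.5 CPM in vehicle and from 11.96 to 18.5 CPM in DOX libraries (log2 fold change 0.14, SE 0.15, adjusted p = 0.579). TRIM34, a close relative of TRIM5, had 6 to 16 counts in any CAL27 library and 10 to 56 in any HSC3 library and was not called in either line. Of its annotated exon bases, 83.6% lie under the read-through gene TRIM6-TRIM34, which had 0 counts in all 12 libraries, so the TRIM34 level is uncertain.

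The start regions of the family were read for the letters of the interferon-stimulated response element (ISRE), the DNA motif bound by interferon regulatory factors. The ISRE core was searched as GAAA, any 2 bases and GAAA, on both strands, from 250 bases before to 50 after each RefSeq start. It was found in 3.57% of all 35116 such windows. Of the interferon-linked genes, 9 had a window and 6 held these letters, and of the other members 27 had a window and 3 held them. A gene with several starts has several windows. Counted by window, as for all windows, 6 of 10 held the letters in interferon-linked genes and 3 of 42 in the others. The interferon-gamma-activated site (GAS), searched as TTCNNNGAA on both strands, was found in 7.66% of all windows. It was found in 0 of the 9 interferon-linked genes (0 of 10 windows) and in 5 of the 27 others (7 of 42 windows). A match is a description of letters and not a measured binding site.

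Stretches of 30 bases with the ISRE letters in capitals are shown for the 9 genes, 5′ to 3′ on the strand of the gene (RefSeq, GRCh38.p14), to allow a comparison of the genes that fell with those that did not. TRIM14, TRIM21 and TRIM69 fell in CAL27 alone by the within-line tests, TRIM5, TRIM44 and TRIM16 fell in both lines, TRIM26 and TRIM34 were not called, and TRIM2 was lower in CAL27 and higher in HSC3. The letters of TRIM21 and TRIM26 are each a pair of overlapping matches.
TRIM14: acggccgaggTTTCGGTTTCccttgggagc
TRIM5: atagtttatcTTTCACTTTCctgccctgag
TRIM21: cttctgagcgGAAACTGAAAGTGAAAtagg
TRIM69: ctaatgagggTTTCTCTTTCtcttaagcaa
TRIM26: tcccgcctgaTTTCAGTTTCCATTTCgctg
TRIM34: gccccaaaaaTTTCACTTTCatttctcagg
TRIM44: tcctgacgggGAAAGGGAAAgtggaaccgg
TRIM16: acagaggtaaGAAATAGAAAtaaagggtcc
TRIM2: aataaatagaGAAAAGGAAAtaagccgaag
The stretches lie at chr9:98119229-98119258 for TRIM14, chr11:5685082-5685111 for TRIM5, chr11:4393666-4393695 for TRIM21, chr15:44736456-44736485 for TRIM69 and chr6:30213581-30213610 for TRIM26. Those of TRIM34, TRIM44, TRIM16 and TRIM2 lie at chr11:5624901-5624930, chr11:35662730-35662759, chr17:15683012-15683041 and chr4:153151936-153151965. TRIM34, TRIM44, TRIM69 and TRIM2 are on the plus strand and the others on the minus strand. In the GENCODE annotation all 30 bases of TRIM5, TRIM21 and TRIM69 and 6 bases of TRIM16 fall in annotated exons of the same gene, and the remaining 5 stretches lie outside the exons of their gene. TRIM25, TRIM38, TRIM56, TRIM6 and TRIM32, which also fell in CAL27, had windows without these letters. Start regions of TRIM22, TRIM4, TRIM13, TRIM24 and TRIM29, which fell in CAL27 too, were not analysed here.

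In TRIM14 the letters began 26 bases before the start. The 250 bases before its start, chr9:98119223-98119472 on the minus strand, show the motif close to the end of the region.
TRIM14 upstream: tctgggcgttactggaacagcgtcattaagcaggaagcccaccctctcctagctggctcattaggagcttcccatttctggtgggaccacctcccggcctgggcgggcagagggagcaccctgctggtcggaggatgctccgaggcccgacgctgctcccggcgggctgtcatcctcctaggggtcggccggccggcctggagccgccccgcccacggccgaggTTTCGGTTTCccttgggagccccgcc
The first matching base lay 27 bases before the start in TRIM5, 62 in TRIM69, 90 in TRIM34 and 194 in TRIM26, and 18 bases into the transcript in TRIM21.

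Outside the interferon-linked genes, TRIM29, TRIM44 and TRIM16 fell in both lines. All of them lack a RING finger. TRIM29, abundant in stratified squamous epithelium, stood at 269, 252 and 250.7 CPM in CAL27 vehicle and at 139, 133 and 130.4 CPM in DOX libraries. Its log2 fold change was -0.94 (SE 0.041, adjusted p = 3.86e-13), and TRIM29 was the 1 member outside the interferon-linked genes to fall by more than 1.5-fold in CAL27. In HSC3 TRIM29 stood at 161, 184 and 170.5 CPM in vehicle and at 113, 124 and 122 CPM in DOX libraries (log2 fold change -0.52, SE 0.069, adjusted p = 2.28e-04). TRIM29 moved with the squamous markers, of which KRT5 fell by 1.05 and 1.00 on the log2 scale in CAL27 and HSC3, and this relation was not tested.

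TRIM44, which carries a zinc finger of the kind found in ubiquitin-specific proteases, had the highest CPM of the family in CAL27. It stood at 819, 839.5 and 861 CPM in CAL27 vehicle and at 733, 712 and 689 CPM in DOX libraries (log2 fold change -0.24, SE 0.039, adjusted p = 4.34e-05). In HSC3 TRIM44 stood at 255, 252 and 267 CPM in vehicle and at 199, 179 and 179 CPM in DOX libraries (log2 fold change -0.47, SE 0.064, adjusted p = 2.54e-04). TRIM16, a B-box protein linked to autophagy of damaged lysosomes, stood at 27.2, 28.9 and 28.0 CPM in CAL27 vehicle and at 24.3, 24.4 and 25.5 CPM in DOX libraries (log2 fold change -0.18, SE 0.052, adjusted p = 0.00725). In HSC3 TRIM16 stood at 17.1, 18.4 and 15.5 CPM in vehicle and at 11.9, 14.0 and 12.7 CPM in DOX libraries (log2 fold change -0.40, SE 0.11, adjusted p = 0.0178). TRIM16 shares sequence with TRIM16L, whose log2 fold changes were -0.06 (CAL27) and -0.75 (HSC3), so the split of reads between the pair is uncertain. The CAL27 call of TRIM16 was lost in a fit over all 12 libraries (adjusted p = 0.127), and the HSC3 call without vehicle replicate 1 (0.0698), vehicle replicate 2 (0.100) or DOX replicate 3 (0.0607).

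**Figure D2:**
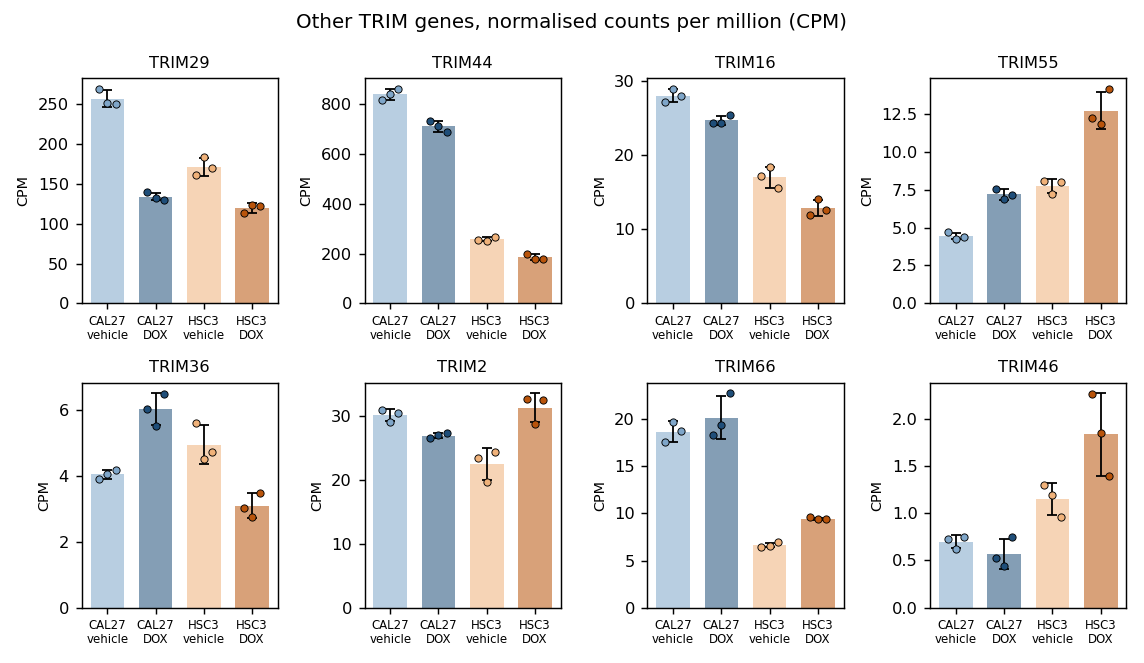
TMM-scaled CPM (y axis, linear from 0) of 8 further TRIM genes in each group (x axis). Points are libraries, bars are means and error bars are SD (n = 3), and CPM were scaled within each line. TRIM36 is higher with DOX in CAL27 (4.04 to 6.01 CPM) and lower in HSC3 (4.93 to 3.09 CPM), and TRIM55 is higher in both lines.

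TRIM55 was the 1 member that rose in both lines. It encodes MuRF2, a microtubule- and sarcomere-associated protein of striated muscle. TRIM55 stood at 4.68, 4.27 and 4.36 CPM in CAL27 vehicle and at 7.57, 6.89 and 7.12 CPM in DOX libraries (log2 fold change 0.70, SE 0.092, adjusted p = 2.94e-06). In HSC3 TRIM55 stood at 8.06, 7.23 and 8.01 CPM in vehicle and at 12.2, 11.8 and 14.1 CPM in DOX libraries (log2 fold change 0.71, SE 0.12, adjusted p = 0.00106). The groups did not overlap, and the folds were 1.62 and 1.64.

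TRIM36 and TRIM2 moved in opposite directions in the 2 lines. TRIM36, a microtubule-binding ligase first described in sperm, stood at 3.90, 4.05 and 4.17 CPM in CAL27 vehicle and at 6.03, 5.51 and 6.48 CPM in DOX libraries (log2 fold change 0.57, SE 0.099, adjusted p = 7.20e-05). In HSC3 TRIM36 stood at 5.60, 4.503 and 4.70 CPM in vehicle and at 3.02, 2.75 and 3.49 CPM in DOX libraries (log2 fold change -0.68, SE 0.17, adjusted p = 0.0108), a call lost without vehicle replicate 1 (0.0651). TRIM2, an NHL-domain ligase for neurofilament light chain, stood at 30.8, 29.0 and 30.5 CPM in CAL27 vehicle and at 26.4, 26.9 and 27.2 CPM in DOX libraries (log2 fold change -0.17, SE 0.050, adjusted p = 0.0108). In HSC3 TRIM2 stood at 23.4, 19.6 and 24.4 CPM in vehicle and at 32.6, 28.7 and 32.4 CPM in DOX libraries (log2 fold change 0.48, SE 0.10, adjusted p = 0.00516). The small CAL27 change of TRIM2 did not pass the test in a fit over all 12 libraries (adjusted p = 0.185).

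The remaining members with a call changed in 1 line by less than 1.5-fold. In CAL27, TRIM4, TRIM6, TRIM13, TRIM24 and TRIM32 fell and TRIM8, TRIM9, TRIM28 and TRIM35 rose, and none of these passed the test in HSC3. TRIM4, which like TRIM25 ubiquitinates RIG-I, had a CAL27 log2 fold change of -0.38 (SE 0.059, adjusted p = 1.82e-05) and went from 20.8 to 21.9 CPM in vehicle to 15.8 to 16.9 CPM in DOX libraries. TRIM6, which makes free ubiquitin chains that activate the kinase IKKε, had one of -0.36 (SE 0.074, adjusted p = 5.15e-04), with 13.6 to 14.6 CPM in vehicle and 10.2 to 12.1 CPM in DOX libraries. TRIM24, a bromodomain reader that targets p53, fell by 0.24 on the log2 scale in CAL27 (SE 0.045, adjusted p = 1.69e-04). In HSC3 the TRIM24 change was of similar size, -0.23 (SE 0.085), without passing the test (adjusted p = 0.0660), and without DOX replicate 1 it passed (adjusted p = 0.00518). It also passed in the fit over all 12 libraries (adjusted p = 0.0148), with library totals (0.0405) and with counts divided by counts per molecule (0.0430).

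TRIM8, a regulator of STAT and NF-κB signalling, rose in CAL27 from 43.6 to 44.7 CPM in vehicle to 51.9 to 54.8 CPM in DOX libraries (log2 fold change 0.27, SE 0.044, adjusted p = 3.85e-05). TRIM28, the corepressor of KRAB zinc finger proteins, rose from 230 to 253 CPM to 275 to 289 CPM in the same comparison (log2 fold change 0.22, SE 0.041, adjusted p = 1.57e-04), a call lost in the fit over 12 libraries (0.188). TRIM9, a brain-enriched ligase of axon guidance, had a CAL27 log2 fold change of 0.26 (SE 0.090, adjusted p = 0.0242) that was lost without CAL27 vehicle replicate 1 (0.0600), vehicle replicate 3 (0.151) or DOX library 5 (0.0873) and in the fit over 12 libraries (0.291). TRIM66, a relative of TRIM28 without a RING finger, rose only in HSC3 by the within-line tests. It stood at 6.46, 6.55 and 6.92 CPM in HSC3 vehicle and at 9.58, 9.37 and 9.42 CPM in DOX libraries (log2 fold change 0.51, SE 0.11, adjusted p = 0.00596). In CAL27 TRIM66 ranged from 17.6 to 19.8 CPM in vehicle and from 18.4 to 22.8 CPM in DOX libraries (adjusted p = 0.249). Reads of overlapping genes may be split or dropped in counting, and of the exon bases 29.2% in TRIM6, 23.5% in TRIM16 and 19.98% in TRIM2 lie under other genes on the same strand, and 19.3% in TRIM8 under a gene on the opposite strand.

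**Figure D3:**
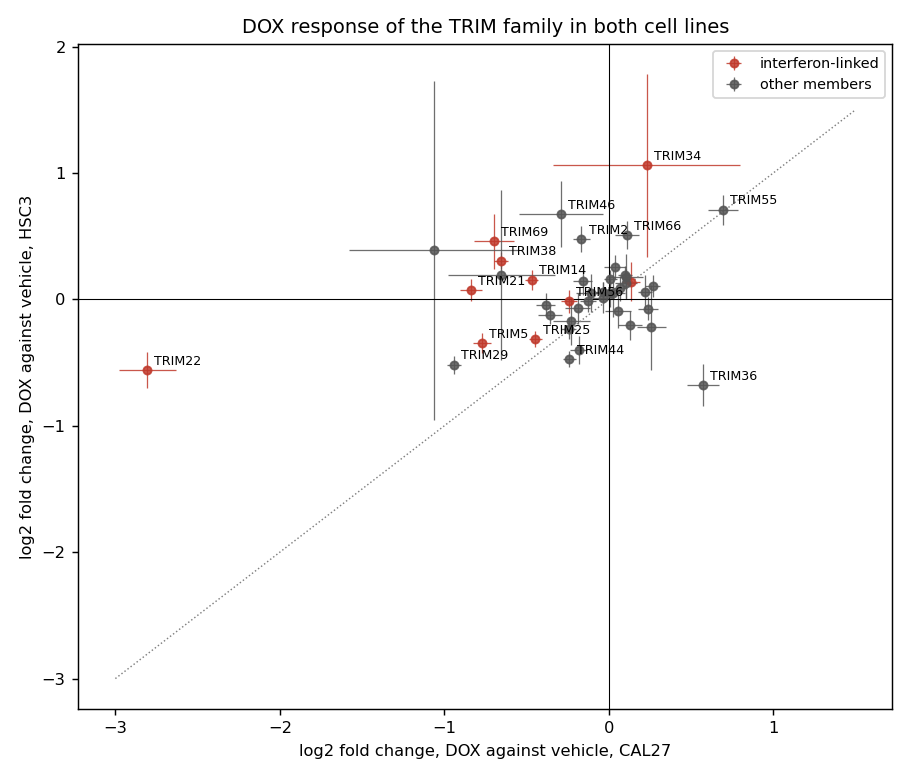
log2 fold change with DOX in CAL27 (x axis) against that in HSC3 (y axis) for the 44 TRIM genes tested in both lines. Points are genes with SE bars, red for the 10 interferon-linked and grey for the other members, and the dotted line marks equal change. TRIM22 lies farthest to the left, TRIM38 and TRIM2 lie in the upper left, TRIM36 in the lower right and TRIM55 near the dotted line in the upper right. The widest bars belong to genes with few counts.

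Few of the calls were large. Past a change of 1.5-fold, 6 members fell and 1 rose in CAL27, beside 9.61% and 3.71% of all genes tested. The 6 that fell were TRIM5, TRIM21, TRIM22, TRIM29, TRIM38 and TRIM69, and TRIM55 rose. In HSC3, TRIM36 fell and TRIM55 rose past this limit, beside 8.4% and 4.43% of all genes. Past 2-fold, TRIM22 fell in CAL27 (5.11% of all genes lower, 1.31% higher), and no member passed in HSC3 (4.4% lower and 1.58% higher). At 1 of 44 in each direction past 1.5-fold, the HSC3 shares of the family lay below those of all genes.

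Of the 44 members tested in both lines, 6 fell in both (TRIM5, TRIM16, TRIM22, TRIM25, TRIM29 and TRIM44), beside 8.62% of all 17164 genes tested in both, and TRIM55 alone rose in both, beside 7.82%. TRIM2 and TRIM38 fell in CAL27 and rose in HSC3 (1.19% of all genes), and TRIM36 rose in CAL27 and fell in HSC3 (2.37%). In CAL27 alone 9 fell and 4 rose (12.1% and 14.8% of all genes), and in HSC3 alone 1 rose and 0 fell (4.47% and 4.85%). The other 20 were called in neither line, beside 43.8% of all genes. HSC3 calls depended on DOX replicate 1. Without it, 9 of 44 members fell and 9 rose, beside 19.3% and 17.5% of all 18697 genes then tested. All 11 members called with every library were among these 18, and the 7 gained were TRIM6 and TRIM24, which fell, and TRIM8, TRIM14, TRIM26, TRIM37 and TRIM68, which rose. Without HSC3 vehicle replicate 1, 4 members fell.

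Whether the response to DOX differed between the lines was tested as the interaction of line and DOX over all 12 libraries. The value is the log2 fold change in HSC3 minus that in CAL27. Of the 48 members in this fit, 10 had a higher and 2 a lower value, beside 8.25% higher and 12.3% lower of all 20694 genes tested. Of the 10 interferon-linked genes, 6 had a higher value and 0 a lower one, with a median of 0.73, and the median of the 34 other members tested in both lines was 0.07. The median of 0.73 lies between TRIM14 (0.63) and TRIM34 (0.83), and TRIM34 had few counts and no call. The median over all genes was -0.02. TRIM22 differed by 2.25 (SE 0.22, adjusted p = 4.67e-06), TRIM69 by 1.16 (SE 0.25, adjusted p = 0.00332), TRIM38 by 0.96 (SE 0.078, adjusted p = 8.44e-07) and TRIM21 by 0.91 (SE 0.11, adjusted p = 3.95e-05). TRIM14 differed by 0.63 (SE 0.085, adjusted p = 8.29e-05) and TRIM5 by 0.43 (SE 0.11, adjusted p = 0.0128). TRIM22 and TRIM5 thus fell in both lines and fell further in CAL27.

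TRIM25, TRIM56, TRIM26 and TRIM34 did not pass the interaction test. TRIM25 differed by 0.13 (SE 0.069, adjusted p = 0.210) and TRIM56 by 0.23 (SE 0.098, adjusted p = 0.124), and both passed without HSC3 DOX replicate 1 (adjusted p = 0.0458 and 0.0430). Among the other members, TRIM36 had the lowest called value, -1.25 (SE 0.19, adjusted p = 2.14e-04), and TRIM2 the highest, 0.64 (SE 0.12, adjusted p = 9.11e-04). TRIM29 differed by 0.42 (SE 0.085, adjusted p = 0.00206) and TRIM4 by 0.34 (SE 0.096, adjusted p = 0.0192). TRIM66, at 0.40 (SE 0.13, adjusted p = 0.0349), and TRIM44, at -0.23 (SE 0.076, adjusted p = 0.0413), were past the threshold by little, and leaving out CAL27 vehicle replicate 2 or 1 moved their adjusted p to 0.0921 and 0.135. Among fits without 1 library, TRIM44 kept its call only without HSC3 DOX replicate 1, and TRIM66 lost its call in several. In all, 1 member had a lower and 6 a higher value past 1.5-fold (6.25% and 4.54% of all genes), and 1 and 2 past 2-fold (3.02% and 2.19%). TRIM55 differed by 0.016 (SE 0.14, adjusted p = 0.980).

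**Figure D4:**
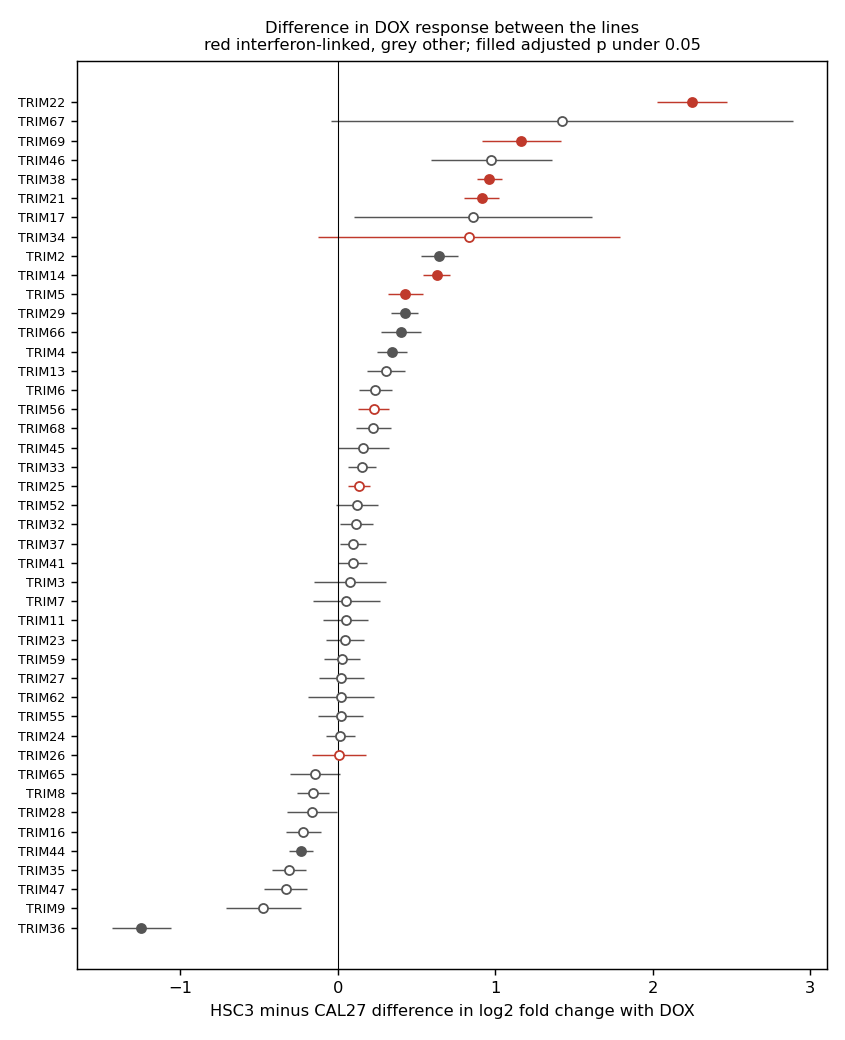
Difference in log2 fold change with DOX, HSC3 minus CAL27 (x axis), for the 44 TRIM genes tested in both lines (y axis, in order of the value). Bars are SE, red marks interferon-linked and grey other members, and filled points have an adjusted p under 0.05. Of the 12 filled points, 6 are red and lie to the right of 0, and TRIM36 and TRIM44 lie to the left.

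The domain groups are small, and their counts stand beside 21.8% lower and 22.6% higher of all genes in CAL27 and 15.4% and 13.0% in HSC3. The 5 members without a RING finger (TRIM14, TRIM16, TRIM29, TRIM44 and TRIM66) had 4 lower calls in CAL27 and 3 lower and 1 higher in HSC3. The 5 tested members with a COS box, a microtubule-binding motif, had 3 higher and 0 lower calls in CAL27 (TRIM9, TRIM36 and TRIM55) and 1 higher and 1 lower in HSC3. Of the 4 tested members with NHL or filamin repeats, TRIM2 and TRIM32 fell in CAL27 and TRIM2 rose in HSC3. The 4 PHD-bromodomain members, which act on chromatin, had 1 lower and 1 higher call in CAL27 (TRIM24 and TRIM28) and 1 higher in HSC3 (TRIM66). Among 28 tested PRY-SPRY members, 10 fell and 3 rose in CAL27, and among 26 in HSC3, 5 fell and 1 rose. The PRY-SPRY share of lower calls was 35.7% in CAL27, near the 35.4% of all members tested, and 19.2% in HSC3, near that of all genes. Of the 10 PRY-SPRY members that fell in CAL27, all but TRIM4, TRIM6 and TRIM16 were interferon-linked. Several genes stand in more than 1 of these groups. All 5 members without a RING finger were lower in HSC3 vehicle than in CAL27 vehicle libraries, beside 32.3% of all genes.

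Some proteins of the family carry other symbols. PML, which organises nuclear bodies and is induced by interferon, stood at 192, 182 and 188 CPM in CAL27 vehicle and at 128, 124 and 121 CPM in DOX libraries (log2 fold change -0.59, SE 0.039, adjusted p = 1.75e-10). In HSC3 PML ranged from 41.3 to 49.0 CPM in vehicle and from 37.0 to 46.5 CPM in DOX libraries (log2 fold change -0.14, SE 0.10, adjusted p = 0.356), and its interaction was 0.45 (SE 0.11, adjusted p = 0.00843). MID1, a COS-box ligase of the microtubule, rose in CAL27 (log2 fold change 0.15, SE 0.038, adjusted p = 0.00313) and in HSC3 (0.39, SE 0.071, adjusted p = 0.00178). Its paralog MID2 rose in HSC3 alone by the within-line tests (0.21, SE 0.073, adjusted p = 0.0484). TRIML2 stood at 12.5 to 15.99 CPM in HSC3 libraries, with no call, and at 0 to 0.133 CPM in CAL27 libraries.

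Of 18 sensors, adaptors and transcription factors that work with the innate immune TRIM ligases, 12 fell and 1 rose in CAL27 (21.8% lower and 22.6% higher of all genes), and 7 fell and 1 rose in HSC3 (15.4% and 13.0% of all genes). In the interaction test, 4 of the 18 had a higher and 1 a lower value, beside 8.25% higher and 12.3% lower of all genes. RIG-I, the target of TRIM25 and TRIM4 and listed as DDX58, went from 5.22 ± 0.208 to 2.42 ± 0.334 CPM in CAL27 (log2 fold change -1.11, SE 0.12, adjusted p = 1.85e-07) and from 1.499 ± 0.141 to 1.10 ± 0.259 CPM in HSC3 (-0.45, SE 0.26, adjusted p = 0.255). Of its exon bases, 43.2% lie under another gene on the same strand, so its counts are uncertain. The related RNA sensor IFIH1 had a log2 fold change of -1.16 (SE 0.054, adjusted p = 5.96e-12) in CAL27 and 0.08 (SE 0.086, adjusted p = 0.581) in HSC3, with an interaction of 1.23 (adjusted p = 1.25e-06). IRF7, the amplifier of the interferon response, fell by 1.84 on the log2 scale in CAL27 (SE 0.11, adjusted p = 3.25e-11) and by 0.94 in HSC3 (SE 0.25, adjusted p = 0.0163). STAT2, which carries the signal of the interferon receptor, fell by 1.14 on the log2 scale in CAL27 and by 0.29 in HSC3. TRAF6, a ubiquitin ligase of another family, rose in HSC3 (log2 fold change 0.63, SE 0.071, adjusted p = 7.26e-05) and had a log2 fold change of -0.03 in CAL27 (adjusted p = 0.494).

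The family differed between the vehicle-treated lines about as widely as all genes did. Comparing vehicle HSC3 with vehicle CAL27 in the 12-library fit, 18 of 48 members were lower and 15 higher in HSC3, beside 32.3% lower and 30.6% higher of all genes tested. Past 1.5-fold, 13 members were lower and 7 higher in HSC3 (25.1% and 21.3% of all genes), and past 2-fold 8 were lower and 4 higher (18.7% and 13.2%). Levels in this comparison are CPM on the scale shared by the 12 libraries. The median log2 difference over all genes was -0.12 with TMM scaling and -0.39 with library totals alone. TRIM6 stood at 12.75 ± 0.416 CPM in CAL27 and at 69.4 ± 1.84 in HSC3 vehicle libraries (SD, n = 3), a log2 difference of 2.44 (SE 0.078, adjusted p = 4.11e-13). TRIM8 stood at 40.1 ± 0.671 and 185.4 ± 6.23 CPM, a log2 difference of 2.21 (SE 0.075, adjusted p = 8.33e-13). TRIM5 was higher in HSC3 by 0.99 (SE 0.079, adjusted p = 2.20e-08) and TRIM55 by 1.08 (SE 0.10, adjusted p = 1.79e-07).

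In the other direction, TRIM9 stood at 5.09 ± 0.346 CPM in CAL27 and at 0.877 ± 0.184 in HSC3 vehicle libraries (log2 difference -2.55, SE 0.17, adjusted p = 3.47e-09). TRIM69 was lower in HSC3 by 1.51 on the log2 scale (a difference of -1.51, SE 0.18, adjusted p = 2.01e-06), TRIM14 had a difference of -1.45 (SE 0.061, adjusted p = 1.01e-11) and TRIM44 one of -1.43 (SE 0.055, adjusted p = 3.21e-12). TRIM22 was lower in HSC3 too, with a difference of -0.73 (SE 0.15, adjusted p = 6.23e-04). TRIM21 differed by 0.13 (SE 0.080, adjusted p = 0.189), and with library totals alone by -0.15 (adjusted p = 0.117). TRIM43 had 18, 34 and 18 counts in CAL27 vehicle libraries and 0 in all 6 HSC3 libraries, and TRIM74 had 14, 10 and 12 against 0 in the 3 HSC3 vehicle libraries. Both have near-identical copies in the genome, so their counts are uncertain, and no fold is given for them.

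**Figure D5:**
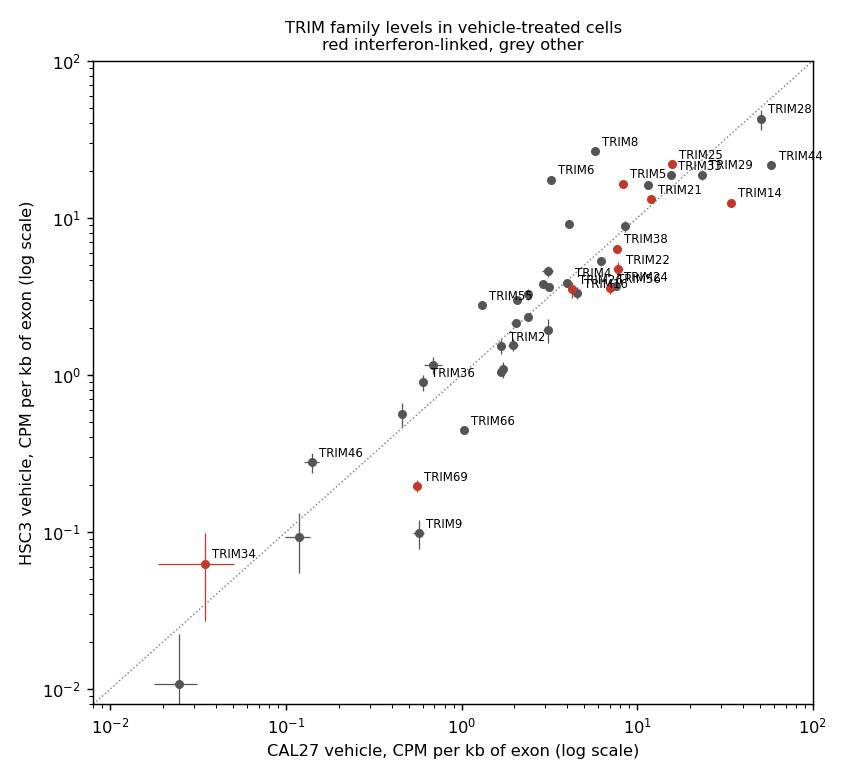
Mean level in vehicle libraries of CAL27 (x axis) and HSC3 (y axis) for the 44 TRIM genes that are members in both lines, as CPM per kb of annotated exon on log scales. Error bars are SD (n = 3), red marks interferon-linked and grey other members, and the dotted line marks equal levels. TRIM6 and TRIM8 lie above the line and TRIM44, TRIM14 and TRIM9 below it.

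Per length, as CPM per kb of exon, TRIM44 had the highest vehicle level in CAL27 at 58.2 ± 1.24, followed by TRIM28 at 50.8 ± 2.75, TRIM14 at 34.1 ± 0.967 and TRIM29 at 23.3 ± 1.10 (SD, n = 3). The libraries of these 4 genes did not overlap with those of the next in order. TRIM25 at 15.8 and TRIM33 at 15.5 came next and overlapped with each other. In HSC3 vehicle, TRIM28 was highest at 42.7 ± 6.19, followed by TRIM8 at 26.5 ± 0.892 and then by TRIM25 at 22.1 ± 1.02 and TRIM44 at 21.6 ± 0.586, which overlapped. TRIM29 at 18.8 and TRIM33 at 18.7 also overlapped, and so did TRIM6 at 17.5, TRIM5 at 16.5 and TRIM37 at 16.2, each with its neighbour. The median vehicle level per kb was 2.92 over the 49 CAL27 members and 3.53 over the 44 HSC3 members. These values use the exon bases of all annotated transcripts, so a gene whose longer transcripts are unused appears too low.

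TRIM46, chosen after its values were seen, is the convergent neighbour of MUC1 on chromosome 1, with 852 bases between the genes. TRIM46 encodes a COS-box protein of the axon initial segment. It stood at 0.729, 0.625 and 0.746 CPM in CAL27 vehicle and at 0.521, 0.440 and 0.744 CPM in DOX libraries, which overlapped (log2 fold change -0.29, SE 0.26, adjusted p = 0.393). In HSC3 TRIM46 stood at 1.30, 1.19 and 0.964 CPM in vehicle and at 2.26, 1.85 and 1.39 CPM in DOX libraries. All HSC3 DOX libraries were above the vehicle libraries, and the log2 fold change of 0.68 (SE 0.26) did not pass the test (adjusted p = 0.0816).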

How the data were processed

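CAL27 and HSC3 mRNA was sequenced from stranded TruSeq libraries. Per the labels and the study's methods, the authors aligned reads with STAR to GRCh38 and deposited whole-number counts per gene, 1 table for each line. The submitters' processing notes name FastQC 0.11.9, STAR 2.7.9a, Subread 2.0.1 and featureCounts. The strand setting, the annotation counted and the handling of duplicates and of reads in overlapping genes are not given in the sources used here.

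From the deposited counts, CPM were computed with TMM factors, and genes were tested with edgeR 4.0.16 (R 4.3.3, quasi-likelihood, robust, low counts filtered by filterByExpr at its limits of 10 counts and 15 in total), 2-sided. Lines were fitted apart for DOX against vehicle and together for the interaction and for vehicle HSC3 against vehicle CAL27. Of the members, 48 in CAL27, 44 in HSC3 and 48 in the joint fit passed the filter. TRIM73, a member in CAL27, was not tested. A call is an adjusted p under 0.05 (Benjamini-Hochberg, all genes tested). The SE given for a log2 value is its absolute size divided by the square root of the F statistic of the test.

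The members and lists were chosen with earlier results of these data known. Named genes were the interferon-linked members, the 8 other called and non-overlapping members with the largest change in each line, the 5 others with the largest called interaction, the 6 others with the largest called vehicle difference and the 3 highest per length in each line. Genes of the lists could be named too. Some genes of these lists are not reported here.

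Replicates were cultured in triplicate, and all 12 libraries were kept. Pairs of replicates had a chi-square per degree of freedom of 7.27 to 132. This statistic takes each count as independent, so several counts per molecule raise it without a difference between cultures. The columns of the CAL27 DOX libraries are numbered 4 to 6 and carry no replicate number. In data simulated from HSC3, 78% of 200 genes changed 2-fold were called, and 96.5% in data simulated from CAL27. In each, 11 unchanged genes were called. Genes with low expected counts were not changed and changes under 2-fold were not simulated, so these shares do not give the recovery of smaller changes. Counts per molecule were estimated from the share of zeros among genes with an expected count of 8 to 16, an estimate that ran high in simulated data. Gene positions and exon lengths come from GENCODE v44 (GRCh38). Alternatives were other scaling and filters, DESeq2 1.42.0, counts divided by counts per molecule, 1 fit over 12 libraries, fold limits, a 5-gene list, a replicate block and leaving out each library.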

Additional observations from a re-analysis of the deposited data

Results flagged for a closer look

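With all 12 libraries, the response to DOX differed between the lines, by the test of the interaction itself, for 12 members. The difference in log2 fold change, HSC3 minus CAL27, was 2.25 for TRIM22, 1.16 for TRIM69, 0.96 for TRIM38, 0.91 for TRIM21, 0.63 for TRIM14 and 0.43 for TRIM5 among the interferon-linked genes. It was 0.64 for TRIM2, 0.42 for TRIM29, 0.40 for TRIM66, 0.34 for TRIM4, -0.23 for TRIM44 and -1.25 for TRIM36 among the others. The calls of TRIM44 and TRIM66 were weak. Among fits without 1 library, TRIM44 kept its call only without HSC3 DOX replicate 1, and TRIM66 lost its call in several. TRIM38 and TRIM2 fell in CAL27 and rose in HSC3, and TRIM36 rose in CAL27 and fell in HSC3, each with no overlap of DOX and vehicle libraries in either line. Of all genes tested, 26.3% lay below and 26.0% above without overlap in CAL27, and 22.8% and 19.8% in HSC3. The CAL27 call of TRIM2 was lost in the fit over 12 libraries (adjusted p = 0.185). The HSC3 call of TRIM36 was lost without vehicle replicate 1 (0.0651). The MUC1 level itself differed, at 60.9 CPM in CAL27 vehicle and 1.60 CPM in HSC3 vehicle, each on the scale of its own line. The part of the lines' different MUC1 levels in these differences was not tested, and line and medium cannot be told apart.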

How the results depend on the processing

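Of 1600 refits of single genes, 1512 kept their direction and their side of the threshold. With a fold limit of 1.5, CAL27 had 6 lower and 1 higher members (5 lower interferon-linked), HSC3 1 and 1 (0 interferon-linked), the interaction 1 lower and 6 higher, and the vehicle comparison 7 higher. With a limit of 2-fold, these were 1 and 0 in CAL27 (1 interferon-linked), 0 and 0 in HSC3, 1 and 2 in the interaction, and 8 and 4 in the vehicle comparison. With the 5-gene list the interferon-linked calls were 5 lower in CAL27 and 0 higher in HSC3, with medians of -0.77 and -0.31, the latter of reversed sign, and -0.11 for the other members in CAL27. The interferon-linked median in CAL27 was -0.66 per molecule, and that of the others -0.0063 per molecule and -0.026 without a filter on low counts. The interaction had 1 lower member with DESeq2 size factors and with a minimum of 50 counts in all, where TRIM44 was lost.

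Leaving out 1 library gave 4 to 9 lower and 4 to 9 higher members in HSC3 (1 to 3 higher interferon-linked, 2 to 3 lower), 15 to 18 lower and 5 to 8 higher in CAL27, 1 to 2 lower and 9 to 13 higher in the interaction, and 18 to 22 lower and 15 to 16 higher in the vehicle comparison. The interferon-linked median ranged from -0.59 to -0.50 in CAL27 and from 0.035 to 0.16 in HSC3, and that of the others from -0.15 to -0.055 and from -0.011 to 0.046. Direction changed 20 times, each without a call. In CAL27, TRIM34 ranged from -0.14 to 0.50. In HSC3, TRIM26 ranged from -0.014 to 0.29, TRIM56 from -0.077 to 0.040 and TRIM28 from -0.053 to 0.20. In the interaction, TRIM26 ranged from -0.15 to 0.18 and was -0.0018 with library totals, TRIM55 ranged from -0.054 to 0.072 and TRIM24 from -0.029 to 0.074. TRIM21 in the vehicle comparison was -0.15 with library totals. The cause was not tested.

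The HSC3 fit with the replicate block gave 7 lower and 4 higher members, of which 3 and 1 were interferon-linked, with medians of 0.098 and 0.043. Deviations of same-numbered HSC3 libraries correlated at -0.025, 0.046 and -0.0064, and those of differently numbered libraries at -0.0525 to 0.0454. No effect shared by number was seen, which cannot show whether the cultures were paired by design. No paired analysis was possible in CAL27, the interaction or the vehicle comparison because the CAL27 DOX columns carry no replicate number. Depth limits TRIM34, TRIM43, TRIM67, TRIM72, TRIM73 and TRIM74, which have few counts, and MUC1 in the HSC3 DOX libraries.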
